A study of Petromyzon marinus with 12 samples.

Results

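The cross-species table that the authors deposited sets the endostyle of the sea lamprey (Petromyzon marinus) at T27, T28, T29 and T30 beside a zebrafish column and a column for the sea squirt Ciona. It holds 1671 genes with 1 score per gene in each of the 6 columns, and all 1671 were taken here, of the 21967 gene rows in the lamprey count table. Per gene the mean of the 6 scores deviated from 0 by at most 0.00333 and their SD ran from 0.996 to 1.003. A score therefore places a column above or below that gene's own mean over the columns and carries no level of expression. For each gene the distance of a stage from zebrafish was the absolute difference between the 2 scores, and a gene was counted as closer when that distance was smaller at T30 than at T27. The gain of a gene is its distance at T27 less its distance at T30, so a negative gain is a loss of closeness. The sources used here do not give the zebrafish tissue, its number of samples or the unit behind its score. With 1 value per column, closeness has no error and no test, and what follows about it is description. The lamprey change behind each score was tested in the count table and is given as a log2 change, T30 over T27, with its SE.

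The study sequenced RNA in bulk from wild-type endostyle, with 3 libraries at each of T27, T28, T29 and T30 and no other treatment. What the letter T stands for is not written in the labels, nor whether animals were pooled or replicates came from separate animals. Library totals ran from 28371140 to 36032488 counts, of which the table's genes took 18.3% to 20.6%. Of the markers of the labelled tissue found by symbol, SLC5A5, PAX2, HHEX and FOXA2 were each detected in all 12 libraries, at no less than 5.34, 42.99, 55.8 and 67.5 CPM (counts scaled to the library's normalised total, per 1e6) in that order. These markers were not steady: for each of them every T30 library lay above every T27 library. SLC5A5 had 5.34 to 6.97 CPM at T27 and 95.6 to 119 CPM at T30. PAX2 had 71.2 to 83.4 CPM at T27, 42.99 to 48.3 CPM at T29 and 116 to 131 CPM at T30. TG (thyroglobulin) and NKX2-1 were also looked for and were not matched by symbol. Markers of other cells differed between the stages too. The 17 sarcomere and muscle markers summed to between 1069 and 1605 CPM at T30 and between 528 and 572 CPM at T27, with 11 that rose and 2 that fell in edgeR. The 8 pigment cell markers summed to 19.2 to 19.4 CPM at T30 and 3.98 to 5.37 CPM at T27, and 7 of them rose. Their sum was higher still between these stages, at 21.9 to 25.7 CPM at T28 and 33.5 to 37.3 CPM at T29. The 7 neural crest markers summed to 47.4 to 58.4 CPM at T30 and 143 to 222 CPM at T27, with 1 rise and 6 falls. The 22 blood and liver markers summed to 672 to 723 CPM at T30 and 813 to 849 CPM at T27, and of the 20 tested 3 rose and 8 fell. For comparison, 34.8% of all genes tested rose and 34.1% fell. No marker of these 4 lists was at 0 in all libraries, and their part in the results was not tested. In bulk RNA, fewer cells of a type and less RNA per cell cannot be told apart.

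The endostyle is a ciliated gland along the pharyngeal floor of filter-feeding chordates that secretes mucus to trap food, and in the larval lamprey it also binds iodine. At metamorphosis the lamprey endostyle becomes a follicular thyroid, whereas zebrafish form thyroid follicles directly, with no endostyle. Thyroid hormone is made on thyroglobulin in a reaction that needs hydrogen peroxide, which is supplied by a dual oxidase and its maturation factor. Many genes of the table belong to functions found in nearly every animal cell, such as splicing, protein breakdown, mitochondria, cilia and cell division.

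The lamprey endostyle was farther from the zebrafish score at T30 than at T27 in most genes. Of the 1671 genes, 578 (34.6%) were closer at T30, 1085 (64.9%) were farther and 8 were equally far. The median distance was 0.61 score units at T27, 0.35 at T28, 0.46 at T29 and 1.07 at T30. T28 was the nearest stage for 594 genes, T29 for 506, T27 for 310 and T30 for 234, with 27 ties. T30 was the farthest stage for 937 genes, T27 for 387, T29 for 238 and T28 for 90. Among large differences, 141 genes (8.44%) gained at least 1 score unit of closeness and 376 (22.5%) lost at least 1. At 2 score units the counts were 17 gains and 133 losses. Genes beside the boundary differed by a single step of the scores, such as SMPD4 and POLR1C with a gain of 0.01 and NLE1 and NDUFS1 with a loss of the same size (-0.01).

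**Figure D1:**
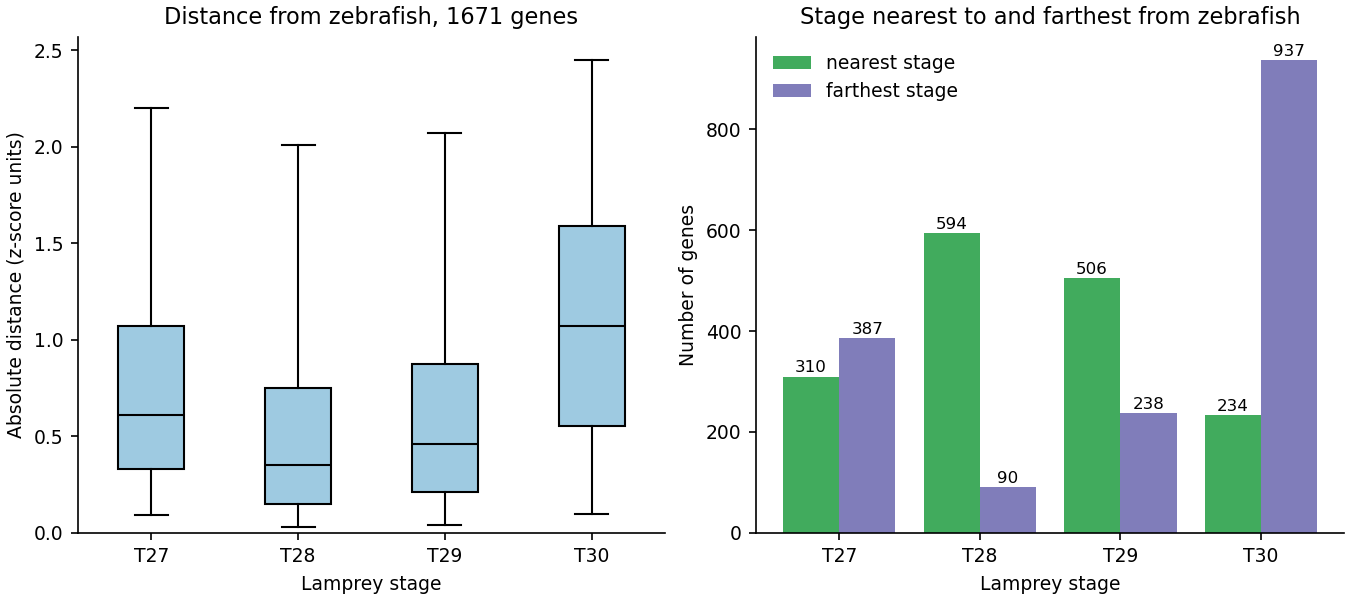
Left, absolute distance of each lamprey stage from the zebrafish score over 1671 genes, with the median as a line, the quartiles as a box and the 5th and 95th percentiles as whiskers. Right, number of genes for which each stage was the nearest to zebrafish (green) or the farthest (purple), ties left out. The median distance is lowest at T28 (0.35) and highest at T30 (1.07).

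The zebrafish column usually lay within the lamprey range. The zebrafish score lay among the 4 lamprey stages in 1541 genes (92.2%), below all 4 in 82 and above all 4 in 48. In 1236 genes T30 and T27 stood on opposite sides of zebrafish, so that the lamprey crossed the zebrafish score between these stages, and 411 of them were closer at T30. In 430 genes both stages stood on the same side, and 166 of those were closer. Scores at T30 were also the most spread, with an SD over genes of 1.16 at T30, 0.643 at T29, 0.550 at T28, 0.856 at T27 and 0.567 in the zebrafish column. With the distance taken from 0, the mean of the 6 columns, in place of zebrafish, 603 genes were nearer at T30 than at T27. Of the 578 genes closer to zebrafish, 390 (67.5%) were also nearer 0. Closeness was more frequent among genes whose score was higher at T30 (374 of 801, 46.7%) than among those whose score was lower (204 of 867, 23.5%).

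Of the 1671 genes 1669 were found by symbol among the lamprey counts and 1654 passed the filter on low counts. Between T30 and T27, 1238 of the 1654 (74.8%) passed edgeR's quasi-likelihood test at an adjusted p under 0.05, against 68.8% of all 16526 genes tested. Of the table's genes 374 (22.6%) rose and 864 (52.2%) fell at T30, against 34.8% and 34.1% of all genes tested. The median log2 change was -0.29 in the table's genes and 0.01 over all genes tested. Scaling the libraries to the summed counts of the table's genes, a setting chosen after seeing the data, moved the median of these genes up by 0.13 and gave 472 rises and 730 falls. The lamprey scores and the counts share libraries, so agreement between them is no independent support for the scores. The count and the score moved in the same direction in 1194 of the 1238 genes. Of the other 44, 42 fell in counts with a higher score at T30, none by more than 0.42 on the log2 scale. Of the 570 closer genes tested, 371 (65.1%) passed the test in the direction of their score, 183 with a rise and 188 with a fall. Of the 1076 farther genes tested, 819 (76.1%) did, 190 with a rise and 629 with a fall.

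A large step in score often rested on a small change in RNA. Among the 588 genes whose score was higher by at least 1 unit at T30, 1 score unit corresponded to a median of 0.18 log2 units of counts (quartiles 0.07 and 0.37). Among the 594 genes whose score was lower by at least 1, it corresponded to 0.38 log2 units (quartiles 0.27 and 0.57). In 69 genes the score changed by no more than 0.1 and the median log2 change in counts was -0.36. The 4 lamprey scores lay closest to a straight line in log2 counts scaled to the table's genes, with a median largest residual of 0.151 score units over 1636 genes, against 0.212 in log2 CPM and 0.223 in CPM.

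**Figure D2:**
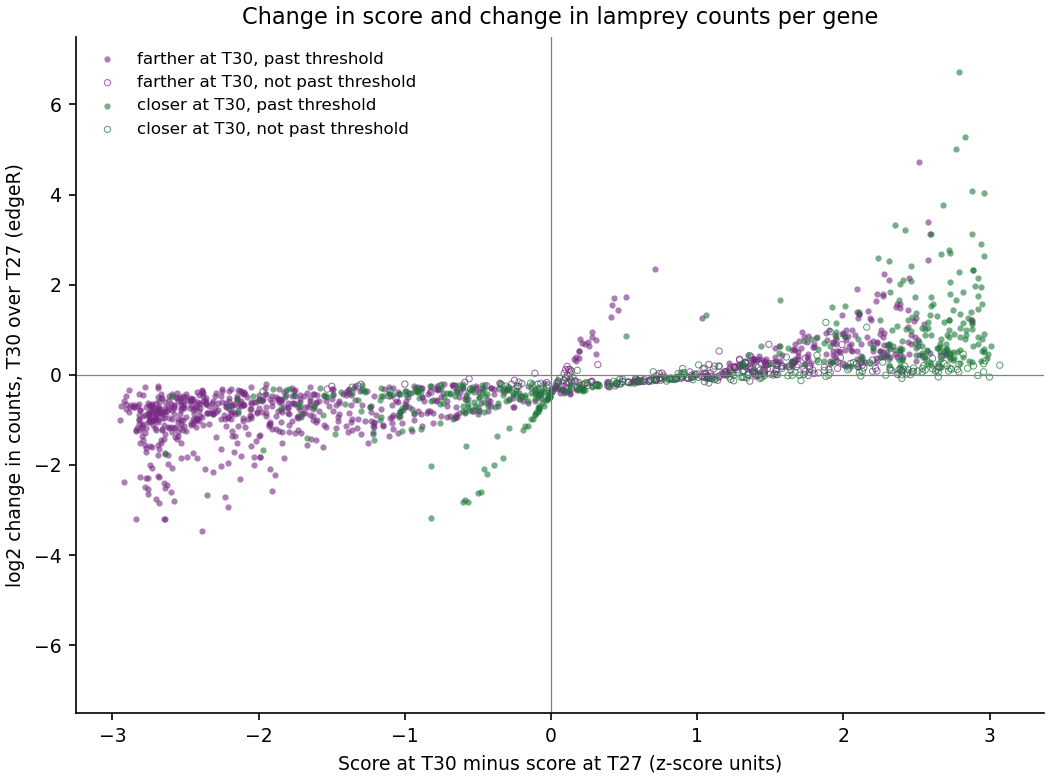
Change in score (T30 minus T27, horizontal) against the log2 change in lamprey counts (T30 over T27, vertical) for the genes tested in edgeR, with closer genes in green, farther genes in purple and filled points past an adjusted p of 0.05. MSTN, with no counts at T30, is not drawn. Genes that fell lie mostly on the farther side, and 2 steep arms near a score change of 0 hold genes whose counts changed while their scores hardly did.

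The source of hydrogen peroxide crossed the zebrafish score and ended no closer to it. DUOX1, the oxidase, scored -1.13, -0.64, -0.57 and 1.41 over the stages against -0.07 in zebrafish, a gain of -0.42. DUOXA2, its maturation factor, scored -1.18, -0.69, -0.52 and 1.49 against 0.13 in zebrafish, a gain of -0.05. Neither symbol was matched to a row of the count table, so both scores stand without a lamprey error. SEPSECS, which makes the selenocysteine tRNA that deiodinases and glutathione peroxidases need, scored 1.49 at T30, -0.89 at T27 and 0.49 in zebrafish. It had 27.5, 21.4 and 27.1 CPM at T30 and 20.4, 19.96 and 20.5 CPM at T27, with no overlap, and rose by 0.32 ± 0.11 log2 units (n = 3 each, edgeR adjusted p = 0.0154). That call was lost without T30 replicate 1, at an edgeR adjusted p of 0.070.

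The 2 lysosomal proteases of the thyroid list, which cut thyroglobulin in thyroid follicles, took different paths. CTSB, cathepsin B, had 19.3, 24.2 and 18.7 CPM at T30 and 87.9, 96.7 and 106 CPM at T27 and fell by 2.23 ± 0.11 log2 units (n = 3 each, edgeR adjusted p = 2.60e-10). Its libraries did not overlap, and its score crossed the zebrafish value of -0.28 and ended farther from it, at -1.49 at T30 against 0.40 at T27. CTSD, cathepsin D, had 256, 282 and 217 CPM at T30 and 207, 222 and 239.6 CPM at T27, which overlap, and did not pass the test (log2 change 0.17 ± 0.10, n = 3 each, edgeR adjusted p = 0.127). CTSD did pass without T30 replicate 3, with a log2 change of 0.29 (edgeR adjusted p = 0.015), and with libraries scaled to the table's genes (edgeR adjusted p = 0.0067). TBX2, a T-box transcription factor of the developing pharynx, stood at the same distance of 0.65 from zebrafish at T30 and at T27, on opposite sides. It fell to 12.2, 9.85 and 12.8 CPM at T30, against 21.5, 30.3 and 27.3 CPM at T27 (log2 change -1.18 ± 0.16, n = 3 each, edgeR adjusted p = 1.33e-05).

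**Figure D3:**
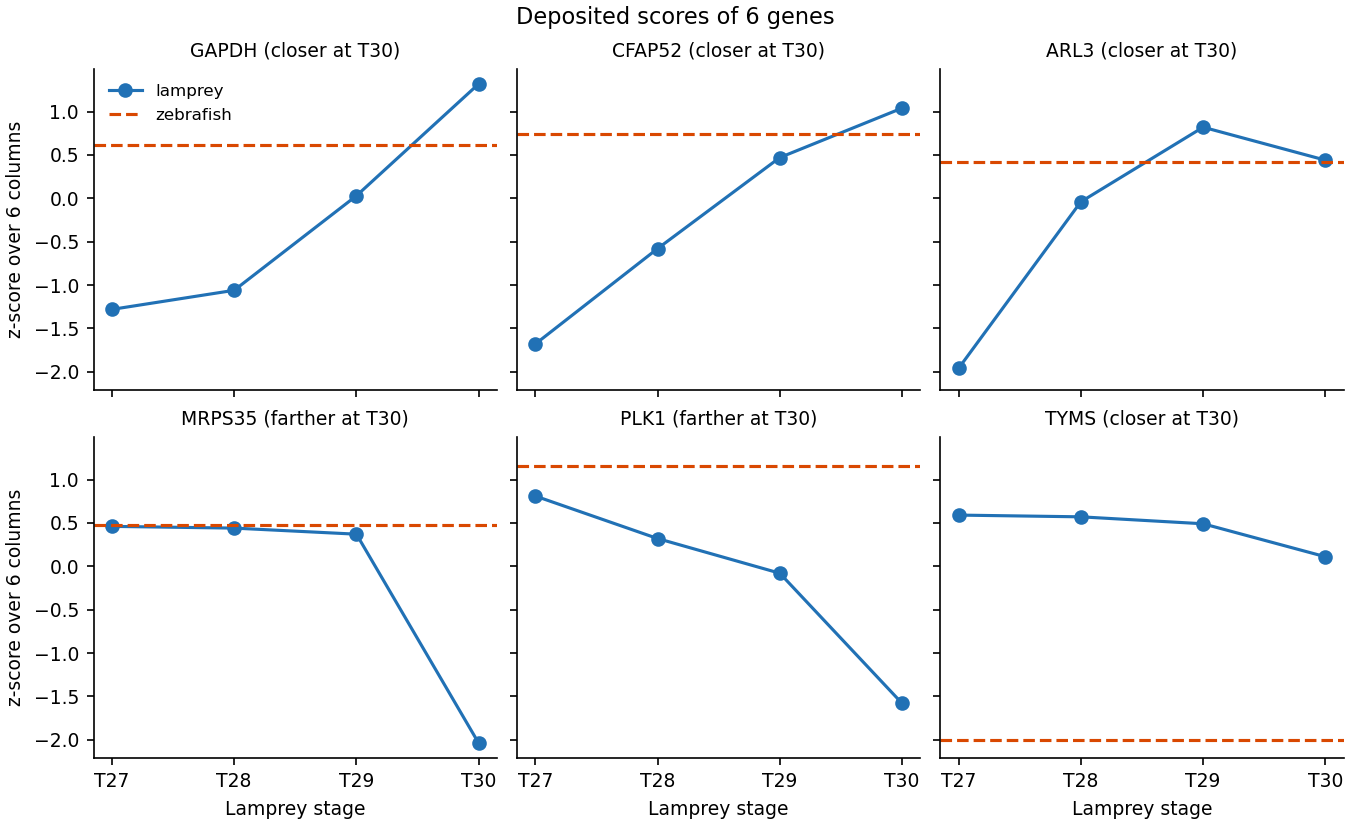
Deposited scores of 6 genes at the 4 lamprey stages (points joined by a line) with the zebrafish score as a dashed level, in z-score units. GAPDH and CFAP52 pass zebrafish only at T30, while ARL3 passes it at T29 and comes back down beside it at T30. MRPS35 and PLK1 drop away at T30, and TYMS lies above zebrafish at every stage.

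Axoneme structure had the highest share of closer genes among the lists of at least 10 genes (72.7%). Glycolysis and the citric acid cycle came next at 68.8%, ahead of the other cilia lists. Those were intraflagellar transport and transition zone at 62.5% and dynein arms and assembly at 60%. Motile cilia carry a ring of microtubule doublets, dynein arms that slide them, radial spokes and a central pair, and they are built by intraflagellar transport. Of the 47 genes in the 3 cilia lists, 32 (68.1%) were closer at T30, against 34.6% of all rows. Their median gain was 0.35 against -0.28 over all rows. Of the 47, 44 scored higher at T30, and among all rows with a higher score 46.7% were closer. In counts 37 of the 46 tested rose and 3 fell, while 22.6% of the table's genes tested rose and 52.2% fell. The median log2 change of the 46 was 0.76. The 22 genes of axoneme structure had 16 closer, 20 rises and no fall, and a median log2 change of 1.02. Of the 10 dynein arm and dynein assembly genes 6 were closer and 8 rose. Of the 16 intraflagellar transport and transition zone genes 10 were closer, and 10 of the 15 tested rose. The 3 falls, among them DAW1 and IFT43, were not called with libraries scaled to the table's genes. DAW1 and IFT43 also lost their calls without T27 replicate 1 (edgeR adjusted p = 0.076 and 0.099), T30 replicate 1 (0.053 and 0.107) or T30 replicate 3 (0.090 and 0.076), and IFT43 without T27 replicate 3 (0.096).

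The cilia genes came nearest to zebrafish at T29. Their median distance was 1.76, 0.83, 0.58 and 1.02 score units at T27, T28, T29 and T30. Over all rows it was 0.61, 0.35, 0.46 and 1.07. The cilia genes thus started farther than the table at T27 and ended about as far at T30. CFAP52, a protein of the doublet microtubules, scored -1.68, -0.58, 0.47 and 1.04 over the stages against 0.74 in zebrafish. It had 122, 141 and 141 CPM at T30 and 63.8, 49.5 and 61.9 CPM at T27, and rose by 1.20 ± 0.10 log2 units (n = 3 each, edgeR adjusted p = 4.73e-08) with no overlap. CFAP52 lies at NC_046105.1:8916267-9186747 (plus strand) of kPetMar1. ZMYND10, a factor for assembling dynein arms, gained 2.18 score units and had 97.6, 111 and 122.9 CPM at T30 and 66.1, 53.6 and 56.5 CPM at T27 (log2 change 0.91 ± 0.10, n = 3 each, edgeR adjusted p = 1.03e-06). RSPH9, a radial spoke head protein, scored highest at T29, where it met the zebrafish score of 1.06 at 1.07, and still gained 1.78 by T30. NME7, a component of the ring complex that nucleates microtubules and of axonemal doublets, gained 2.08 with a rise of 0.69 ± 0.14 (n = 3 each, edgeR adjusted p = 4.59e-04). T29 was the nearest stage to zebrafish for 23 of the 47 genes, T27 for 12, T28 for 8 and T30 for 4.

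A larger change in RNA did not always come with a larger gain in closeness. DNAH9, a motor of the outer dynein arm, had 199.6, 184 and 178 CPM at T30 and 45.8, 33.97 and 32.3 CPM at T27. It rose by 2.32 ± 0.14 log2 units (n = 3 each, edgeR adjusted p = 2.07e-09) and gained 1.33 score units. EFHC2, a protein of the doublet lumen, rose more, by 2.69 ± 0.23 log2 units (edgeR adjusted p = 6.68e-08, n = 3 each), and gained 0.65, ending above zebrafish. IFT52, a core subunit of the transport train, rose by 0.56 ± 0.079 (n = 3 each, edgeR adjusted p = 1.69e-05) and gained 1.92. IFT57, another subunit of the train, had the largest gain of the whole table (2.42), with 61.3, 81.7 and 64.1 CPM at T30 and 63.1, 53.3 and 64.5 CPM at T27. Those libraries overlap, and its log2 change of 0.19 ± 0.10 did not pass the test (n = 3 each, edgeR adjusted p = 0.0958), though it did without T30 replicate 1 (edgeR adjusted p = 0.031). DNAH9, EFHC2 and IFT52 were chosen after their values were seen.

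In 8 of the 47 cilia genes zebrafish scored below every lamprey stage, and none of these was closer at T30. All 8 rose in counts, with a median log2 change of 0.81, so the lamprey moved up and away. CFAP65, a protein of motile cilia and sperm flagella, is one of them and was chosen after its values were seen. It scored 0.15, 0.30, 0.34 and 0.58 over the stages against -2.01 in zebrafish, and had 139, 131 and 147 CPM at T30 and 47.96, 37.8 and 42.8 CPM at T27 (log2 change 1.70 ± 0.09, n = 3 each, edgeR adjusted p = 4.74e-10). CCDC39, the molecular ruler of the axoneme, CFAP58 and TTC12 had the same arrangement, with zebrafish between -2.01 and -1.96. A gene with zebrafish below every stage and a higher score at T30 is farther by construction. All 32 closer cilia genes were therefore among the other 39, and that split by score is no result of its own.

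**Figure D4:**
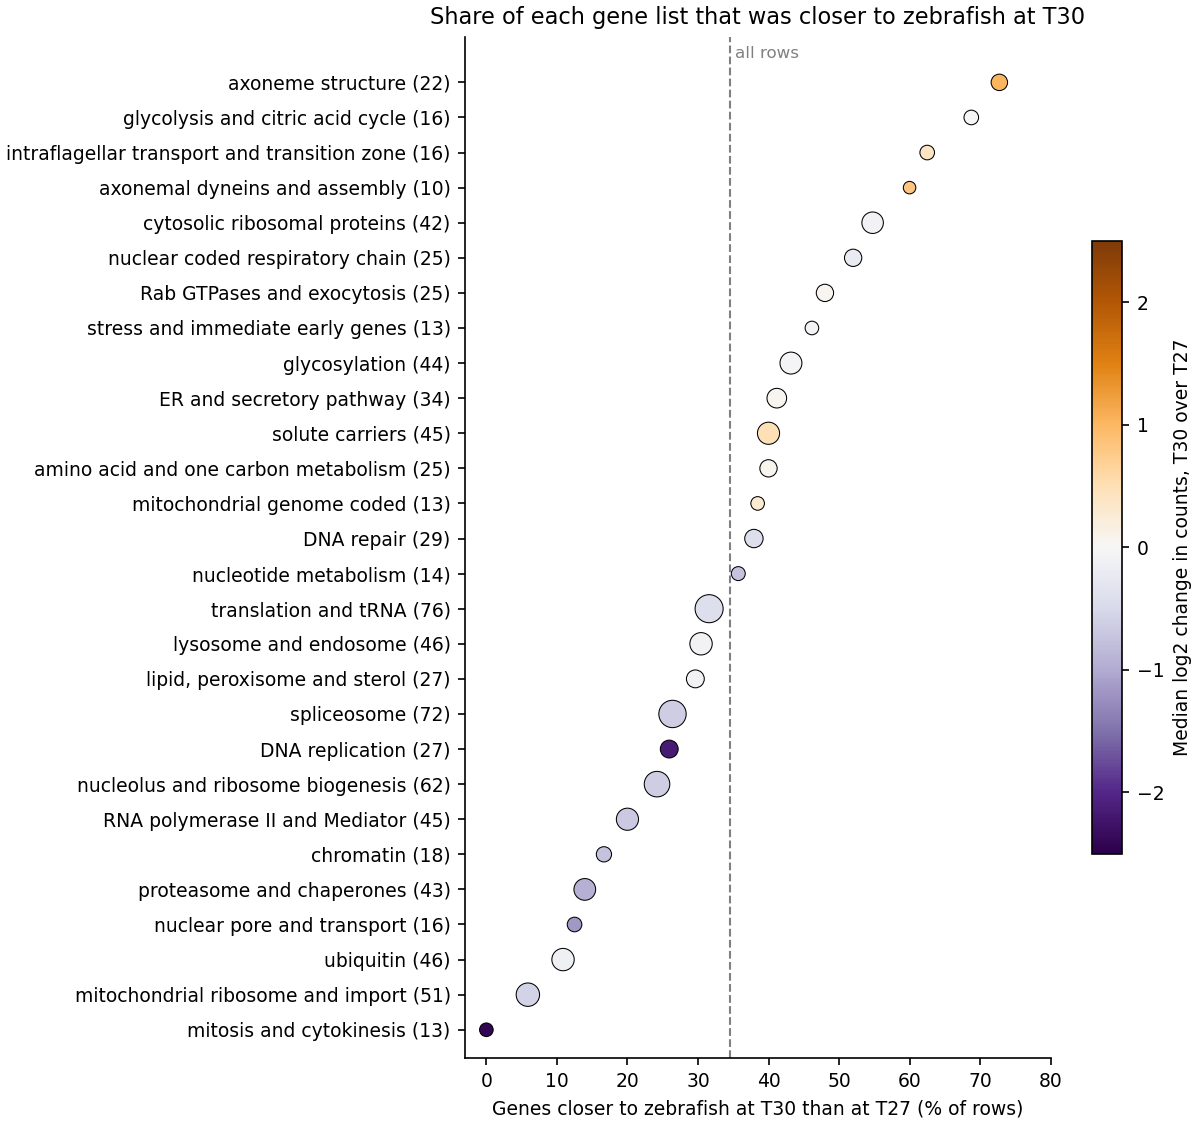
Share of the genes in each list of at least 10 genes that was closer to zebrafish at T30 than at T27, with the number of genes in brackets, point area growing with that number and colour showing the median log2 change in counts (T30 over T27). The dashed line marks the 34.6% of all rows, with axoneme structure at 72.7% and mitosis and cytokinesis at 0%.

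In the list of glycolysis and the citric acid cycle, 11 of 16 genes (68.8%) were closer at T30, against 34.6% of all rows. In counts 6 rose and 6 fell. SUCLG1, a subunit of succinyl-CoA ligase in the citric acid cycle, gained 2.04 and rose to 209, 201 and 219 CPM at T30, against 142, 128 and 149 CPM at T27 (log2 change 0.59 ± 0.074, n = 3 each, edgeR adjusted p = 5.39e-06). IDH3G, a subunit of isocitrate dehydrogenase, gained 1.93 with a rise of 0.35 ± 0.066 (n = 3 each, edgeR adjusted p = 2.43e-04). MDH1, the cytosolic malate dehydrogenase, fell by 0.50 ± 0.076 (n = 3 each, edgeR adjusted p = 3.57e-05) and lost closeness (-1.42). The glycolytic enzyme GAPDH, chosen after its values were seen, had 483, 292 and 419 CPM at T30 and 50.9, 40.02 and 46.1 CPM at T27, 8.71-fold more with no overlap (edgeR adjusted p = 1.34e-09, n = 3 each), and gained 1.20. Among 25 nuclear genes of the respiratory chain 13 were closer (52%), against 34.6% of all rows, while 2 rose and 13 fell. Over all the table's genes tested, 22.6% rose and 52.2% fell, so the share of falls in this list was near that of the table. The summed sarcomere and muscle markers were higher at T30 as well, as given above, and their part in these changes was not tested.

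Of 27 genes of lipid, peroxisome and sterol metabolism 8 were closer (29.6%), against 34.6% of all rows, and 19 were farther. In counts 8 rose and 13 fell, while 22.6% of the table's genes tested rose and 52.2% fell. HSD17B10 lost the most closeness in the list (-2.36) on a fall of 0.51 ± 0.077 log2 units (n = 3 each, edgeR adjusted p = 3.43e-05). ACADS, which oxidises short fatty acyl chains, gained 2.15 on a rise of 0.26 ± 0.071 log2 units (n = 3 each, edgeR adjusted p = 0.00476). ACAD8, which acts in valine breakdown, had 41.2, 51.7 and 42.96 CPM at T30 and 7.78, 4.91 and 5.45 CPM at T27, rose by 2.90 ± 0.17 (n = 3 each, edgeR adjusted p = 1.28e-09) and gained 1.82. BCKDHA of the branched-chain keto acid dehydrogenase and MCCC2 of leucine breakdown gained 1.21 and 1.67, with rises of 0.79 and 0.54 log2 units (edgeR adjusted p = 3.76e-08 and 4.25e-05, n = 3 each). HIBADH, a dehydrogenase of valine breakdown, gained 1.12 with a log2 change of 0.06 ± 0.31 that did not pass the test (n = 3 each, edgeR adjusted p = 0.87). OXCT1, which lets tissues use ketone bodies, scored -0.96, -0.84, -0.56 and 1.37 over the stages against 1.09 in zebrafish and gained 1.77. BCKDHA, MCCC2, HIBADH and OXCT1 were chosen after their values were seen. Among 25 genes of amino acid and one-carbon metabolism 10 were closer (40.0%). HPD of tyrosine breakdown gained 1.48 and rose by 2.08 ± 0.10, and ASS1 of arginine synthesis gained 1.38 and rose by 2.59 ± 0.19 (edgeR adjusted p = 1.50e-10 and 1.17e-08, n = 3 each). ALDH8A1 of tryptophan breakdown lost closeness (-1.71) on a rise of 0.58 ± 0.16 (n = 3 each, edgeR adjusted p = 0.00433).

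Other genes that gained closeness on a rise included transporters and secretory proteins. SLC7A9, the light chain of a cystine and basic amino acid transporter, had 70.3, 83.2 and 67.4 CPM at T30 and 2.62, 1.24 and 1.77 CPM at T27. It rose by 5.28 ± 0.24 log2 units (n = 3 each, edgeR adjusted p = 1.07e-10) and gained 1.51. TMED4, a cargo receptor of early secretory vesicles, had 1042, 1218 and 1121 CPM at T30 and 578, 509 and 599.6 CPM at T27, rose (n = 3 each, edgeR adjusted p = 9.77e-08) and gained 1.38. FUT11 and CHST11, which add fucose and sulfate to glycans, gained 1.65 and 1.42 with rises of 1.29 and 0.80 log2 units (edgeR adjusted p = 1.24e-06 and 8.90e-04, n = 3 each). AGA, a lysosomal enzyme that trims glycoproteins, gained 1.76 and ATP6AP2, an accessory protein of the proton pump, gained 1.40. In these functions the share of closer genes was near the 34.6% of all rows. It was 40.0% of 45 solute carriers, 41.2% of 34 secretory pathway genes, 43.2% of 44 glycosylation genes and 30.4% of 46 lysosomal genes.

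Several of the largest gains came with small changes in RNA. Of the 15 largest, 7 (IFT57, SDHAF2, CCN1, CYTB, INPP5A, TMEM42 and ZDHHC12) did not pass the edgeR test between T30 and T27. With libraries scaled to the table's genes, 4 of the 7 (IFT57, SDHAF2, CCN1 and TMEM42) passed it as rises, at edgeR adjusted p values of 0.0052, 0.0031, 0.0087 and 0.013. CCN1 also passed in DESeq2 (adjusted p = 0.040), IFT57, SDHAF2 and CCN1 without T30 replicate 1 (edgeR adjusted p = 0.031, 0.041 and 0.033), SDHAF2 and CCN1 without T27 replicate 3 (0.048 and 0.025), CCN1 without T28 replicate 2 or 3 (0.037 and 0.024) and INPP5A without T30 replicate 3 (0.029). SDHAF2, an assembly factor of succinate dehydrogenase, scored -1.89, -0.24, 0.93 and 0.43 over the stages against 0.44 in zebrafish. It had 68.4, 86.2 and 74.6 CPM at T30 and 67.8, 62.8 and 75.7 CPM at T27, which overlap (log2 change 0.15 ± 0.088, n = 3 each, edgeR adjusted p = 0.139). CYTB, cytochrome b of the mitochondrial genome, had 2593, 2459.8 and 3450.1 CPM at T30 and 2641, 2647 and 2752 CPM at T27, which overlap too, with a log2 change of 0.08 ± 0.12 (n = 3 each, edgeR adjusted p = 0.581). In contrast DBX1, a homeodomain protein known from neural progenitors, had 24.2, 31.8 and 26.5 CPM at T30 and 14.5, 4.50 and 5.78 CPM at T27 and rose by 1.73 ± 0.30 (n = 3 each, edgeR adjusted p = 1.11e-04). ERAL1, which helps assemble the small mitochondrial ribosome subunit, rose by 0.60 ± 0.06 (n = 3 each, edgeR adjusted p = 4.44e-07).

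Of the 578 closer genes, 205 fell in counts, and some of these had zebrafish below all stages. Zebrafish scored below every lamprey stage in 82 genes, of which 41 were closer and 41 farther at T30. Here closeness follows from the direction of the score by construction. The 41 with a lower score at T30 are the closer ones, so the gains below are no result of their own. The 5 replication and repair genes TYMS, CHEK1, EXO1, CDT1 and GINS4, chosen after their values were seen, had zebrafish scores from -2.01 to -1.99 and scores at T30 from 0.02 to 0.17. TYMS makes the thymidylate that replication needs, and it had 15.7, 18 and 19.3 CPM at T30 and 105, 106 and 110.2 CPM at T27. It fell by 2.60 ± 0.082 log2 units (n = 3 each, edgeR adjusted p = 4.22e-12), with T30 far below T27, and gained 0.48, with 4 lamprey scores that ran from 0.59 to 0.11. CHEK1, a kinase of the replication checkpoint, fell by 2.83 ± 0.10 (n = 3 each, edgeR adjusted p = 7.83e-12) and gained 0.57. DSCC1, which helps load the sliding clamp, gained 0.60 on a fall of 2.81 ± 0.15 (n = 3 each, edgeR adjusted p = 6.30e-10).

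Signalling genes of development were few, and all 7 fell, while 52.2% of the table's genes tested did. Of the 7, 5 were closer at T30, against 34.6% of all rows. The Notch ligand DLL1 had 0.242, 0.713 and 0.695 CPM at T30 and 6.21, 3.97 and 4.54 CPM at T27, with no overlap. It fell by 3.18 ± 0.35 log2 units (n = 3 each, edgeR adjusted p = 1.34e-06). Its gain was 0.82 toward a zebrafish score of -1.79, which lay below every stage, so a lower score is closer by construction. GDF10, a ligand of the TGF-beta family, gained 0.60 on a fall of 0.81 ± 0.12 (n = 3 each, edgeR adjusted p = 3.78e-05). SUFU, a repressor of Hedgehog signalling, fell by 1.51 ± 0.13 (n = 3 each, edgeR adjusted p = 7.21e-08) and ended farther (-0.25).

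The mitochondrial ribosome and protein import list was nearly all farther at T30. Of its 51 genes 3 were closer (5.88%) and 48 farther, 32 of them by at least 1 score unit, and the median distance was 1.92 at T30 and 0.24 at T27. Over all rows 34.6% were closer and 22.5% lost at least 1 score unit. Scores were lower at T30 in 45 of the 51, and 23.5% of all rows with a lower score were closer. In counts 45 fell and 1 rose, while 52.2% of the table's genes tested fell and 22.6% rose. The median log2 change of the list was -0.57. MRPS35, a protein of the small mitochondrial subunit, scored 0.46, 0.44, 0.37 and -2.04 over the stages against 0.48 in zebrafish. It had 34.7, 37.8 and 29.6 CPM at T30 and 62.6, 57.5 and 76.2 CPM at T27, did not overlap and fell by 0.94 ± 0.11 log2 units (n = 3 each, edgeR adjusted p = 1.93e-06). MRPS35 lies at NC_046128.1:7846394-7863534 (plus strand) of kPetMar1. MRPL10 of the large subunit, chosen after its values were seen, fell by 0.58 ± 0.10 (n = 3 each, edgeR adjusted p = 7.48e-05) with a gain of -2.45, beside -2.5 for MRPS35. MRPL28 and MRPS30, 2 of the 3 closer members, did not pass the test (log2 changes -0.06 and -0.05, edgeR adjusted p = 0.47 and 0.611, n = 3 each).

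Genes of protein breakdown were mostly farther too. The proteasome degrades proteins marked with ubiquitin chains. Of 43 proteasome and chaperone genes 6 were closer (13.95%), 39 fell and 1 rose, with a median log2 change of -0.94. PSMD12, a lid subunit, had 167, 197 and 168 CPM at T30 and 303, 298 and 351 CPM at T27, fell by 0.84 ± 0.084 (n = 3 each, edgeR adjusted p = 4.25e-07) and lost closeness (-2.32). PSMC4, a base ATPase chosen after its values were seen, had 87.2, 106 and 102 CPM at T30 and 191, 185 and 219.8 CPM at T27 and a gain of -2.26. Both genes had no overlap between T30 and T27 libraries. The 46 ubiquitin genes differed in that 14 rose and 22 fell, with a median log2 change of -0.13, but 5 were closer (10.9%). For comparison, 22.6% of the table's genes tested rose and 52.2% fell, and 34.6% of all rows were closer. Scores were lower at T30 in 38 of the 43 proteasome and chaperone genes, and 23.5% of all rows with a lower score were closer. COPS5, the catalytic subunit of the COP9 signalosome, fell by 0.85 ± 0.08 (n = 3 each, edgeR adjusted p = 2.42e-07) with a gain of -2.27.

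Cell division genes mostly fell. Of 13 mitosis and cytokinesis genes 12 fell and 1 rose, while 52.2% of the table's genes tested fell and 22.6% rose. The median log2 change of the 13 was -2.41. None was closer at T30, against 34.6% of all rows, and 10 lost at least 1 score unit, against 22.5%. Scores were lower at T30 in 12 of the 13, and 23.5% of all rows with a lower score were closer. PLK1, a kinase that drives mitotic entry and exit, was chosen after its values were seen. It had 16.6, 19.3 and 19.9 CPM at T30 and 200.3, 199 and 215.8 CPM at T27 and fell by 3.46 ± 0.10 log2 units (n = 3 each, edgeR adjusted p = 2.97e-12). The zebrafish score of PLK1 (1.16) lay above all 4 lamprey scores, 0.81, 0.32, -0.08 and -1.58, so the fall took lamprey away from it. KIF11, the motor that separates spindle poles, also chosen after its values were seen, fell by 3.21 ± 0.077 (n = 3 each, edgeR adjusted p = 1.36e-12) with a gain of -1.81. ANAPC10, a subunit of the anaphase-promoting complex, fell by 0.87 ± 0.10 (n = 3 each, edgeR adjusted p = 2.88e-06) with a gain of -2.54. The exception in counts was CENPV, at 2.88, 2.97 and 2.82 CPM at T30 and 1.78, 1.68 and 1.80 CPM at T27, which rose by 0.72 ± 0.20 (n = 3 each, edgeR adjusted p = 0.00441).

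Replication genes fell as uniformly but were more mixed in closeness. Of 27 genes 26 fell and none rose, while 52.2% of the table's genes tested fell and 22.6% rose. The median log2 change of the 27 was -2.17, and 7 were closer (25.9%), against 34.6% of all rows. Scores were lower at T30 in 26 of the 27, and 23.5% of all rows with a lower score were closer, near the share of this list. PCNA, the sliding clamp, and MCM7, a subunit of the replicative helicase, were chosen after their values were seen. PCNA had 84.3, 102 and 104 CPM at T30 and 549.7, 529.9 and 659.8 CPM at T27, and MCM7 had 35.5, 37.9 and 35.4 CPM at T30 and 215, 220.3 and 223 CPM at T27, both without overlap. Their gains were -0.67 and -1.16. GINS2, of the same helicase, lost the most closeness in the list (-2.42), with zebrafish at 1.07 above all stages and a fall of 1.84 ± 0.093 (n = 3 each, edgeR adjusted p = 3.08e-10). The zebrafish score lay above every lamprey stage for PLK1 and GINS2 and below every stage for TYMS and DSCC1, although all 4 genes fell.

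**Figure D5:**
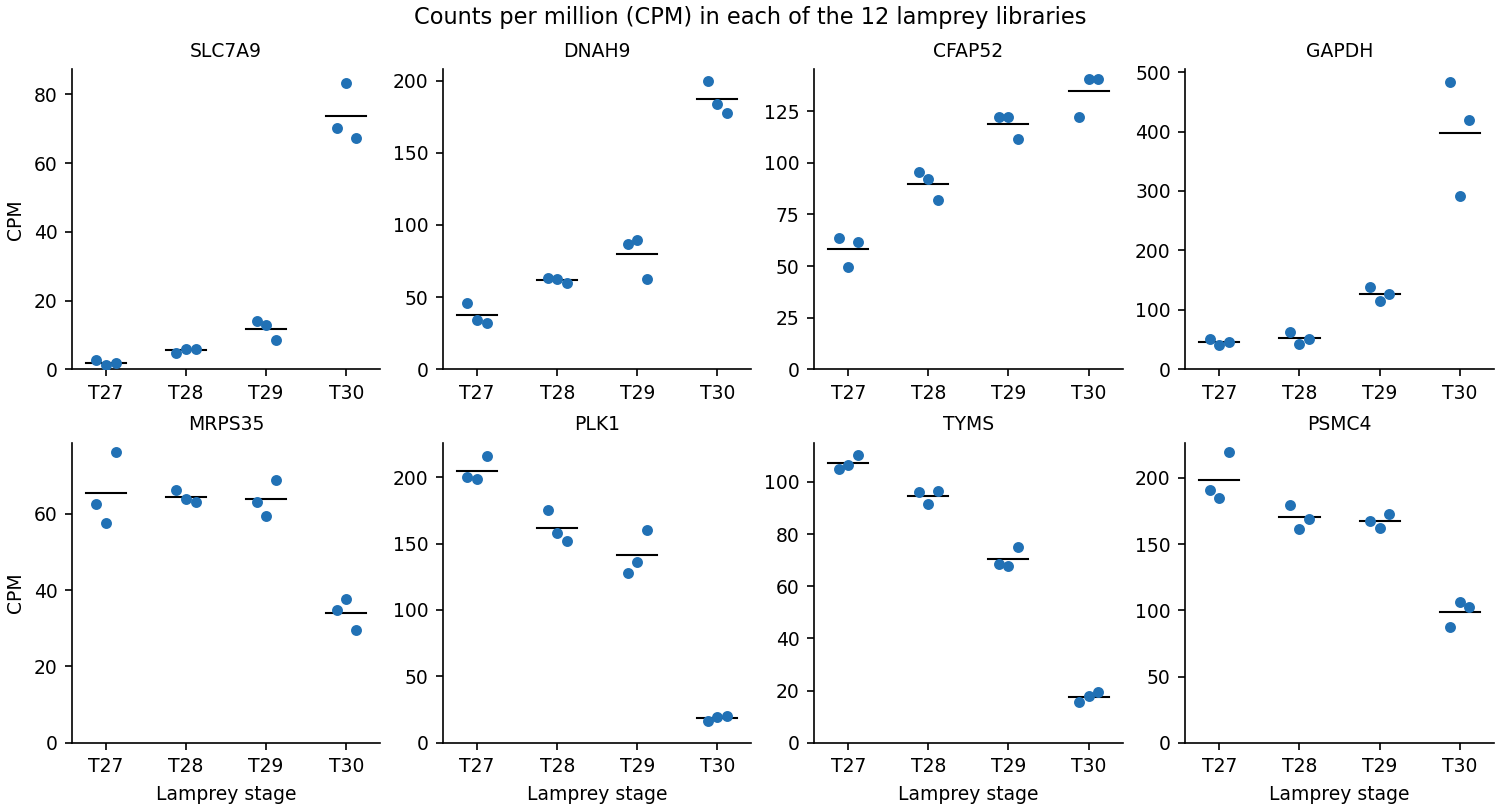
CPM of 8 genes in each of the 12 lamprey libraries (points) with the mean of each stage as a line. For these genes every T30 library lies above every T27 library (SLC7A9, DNAH9, CFAP52, GAPDH) or below every T27 library (MRPS35, PLK1, TYMS, PSMC4).

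Genes of RNA processing and nuclear transport were mostly farther at T30 as well. For the shares in this paragraph, 34.6% of all rows were closer, and 52.2% of the table's genes tested fell and 22.6% rose. Of all rows with a lower score at T30, 23.5% were closer. Scores were lower at T30 in 62 of the 72 spliceosome and 54 of the 62 nucleolar genes, whose closer shares were near 23.5%. Of 72 spliceosome genes 19 were closer (26.4%) and 63 fell against 1 that rose, with a median log2 change of -0.64. SF3B5, a small subunit of the complex that recognises the branch point, had 210.0, 222 and 201 CPM at T30 and 346, 336 and 388 CPM at T27, fell by 0.76 ± 0.076 (n = 3 each, edgeR adjusted p = 4.48e-07) and had a gain of -2.61. DDX23, a helicase of the same machine, gained 0.97 on a fall of 0.44 ± 0.073 (n = 3 each, edgeR adjusted p = 8.16e-05), since its score crossed down to -0.26 beside -0.25 in zebrafish. Of 16 nuclear pore and transport genes 2 were closer (12.5%) and all 16 fell, among them NUP160 of the pore scaffold, chosen after its values were seen, by 1.63 ± 0.073 (n = 3 each, edgeR adjusted p = 9.42e-11). THOC3, of a complex that couples transcription to mRNA export, had a gain of -2.58. Of 45 genes of RNA polymerase II and Mediator 9 were closer, and MED11 of Mediator had a gain of -2.62 on a fall of 1.20 ± 0.10 (n = 3 each, edgeR adjusted p = 7.50e-08). Of 62 nucleolar genes 15 were closer (24.2%) and 56 fell. WDR74, of the large subunit's processing, had a gain of -2.29.

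Cytosolic ribosomal proteins behaved unlike the mitochondrial ones. Of 42 genes 41 scored higher at T30 than at T27, and 23 were closer (54.8%), against 46.7% of all rows with a higher score. In counts between T30 and T27 there were 1 rise, 5 falls and a median log2 change of -0.09, and with libraries scaled to the table's genes 7 rose, 1 fell and the median was 0.04. T28 was the nearest stage to zebrafish for 22 of the 42. RPS21 had 215, 283 and 292 CPM at T30 and 269.8, 225 and 300.3 CPM at T27, which overlap, while its score was -0.05 at T30, -1.30 at T27 and -0.39 in zebrafish. RPL32 lost the most closeness in the list (-0.76) with overlapping libraries and a log2 change of -0.03 ± 0.11 (n = 3 each, edgeR adjusted p = 0.797). The treatment of reads shared by near-identical copies of a gene is not stated in the header or labels, and copies of these genes were not looked for.

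In some genes a single stage stood alone. In 111 genes T30 was at least 1.5 score units from zebrafish while the other 3 stages were within 0.5, and all 111 fell between T30 and T27, with a median log2 change of -0.87. These genes were picked by scores that share libraries with the counts, so their falls are no separate result. Of the 111 genes 10 are mitochondrial ribosomal proteins, against 36 of all 1671 rows, and KIF11, PIGK and COPS5 are others. PIGK, an enzyme that attaches lipid anchors to proteins, scored 0.54, 0.40, 0.31 and -2.03 over the stages against 0.49 in zebrafish, and had 98.2, 96.4 and 111 CPM at T30 and 139, 143 and 146 CPM at T27. In 8 genes T27 stood alone in the same way, namely ACADS, ARL3, TRAPPC4, DBX1, IFT57, SLC32A1, INPP5A and CYTB, and 3 of these passed the test. ARL3, a GTPase of the ciliary membrane, had 88.1, 115 and 114 CPM at T30 and 87.3, 76.1 and 90.1 CPM at T27, which overlap, and rose by 0.33 ± 0.10 (n = 3 each, edgeR adjusted p = 0.00762). SLC32A1 was chosen after its values were seen.

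The largest losses of closeness were all falls. The 10 largest were GPX7, MED11, SF3B5, THOC3, ANAPC10, MRPS35, TMEM242, UROD, MSTN and PIGK. They were picked by scores that share libraries with the counts, so their falls are no separate result. In GPX7, SF3B5, THOC3, ANAPC10 and MRPS35 zebrafish scored above every lamprey stage, so a lower score is farther by construction. GPX7, a peroxidase of the endoplasmic reticulum, had the largest (-2.64), with scores of 1.04, -0.13, 0.12 and -1.60 against 1.05 in zebrafish. GPX7 had 11.05, 11.8 and 13.2 CPM at T30 and 34.9, 43.2 and 42.2 CPM at T27 and fell by 1.74 ± 0.14 (n = 3 each, edgeR adjusted p = 3.65e-08). UROD, an enzyme of heme synthesis and itself in the blood and liver list, fell by 1.01 ± 0.10 (n = 3 each, edgeR adjusted p = 2.53e-07). The summed blood and liver markers were lower at T30 as given above. Of the 20 of them tested 8 fell and 3 rose, while 34.1% and 34.8% of all genes tested did. MSTN, myostatin, which restrains muscle growth, had no count in any T30 library and 5.19, 9.44 and 14.8 CPM at T27. With a floor of 3 counts per library MSTN was at least 105.7-fold lower at T30.

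All 13 genes of the mitochondrial genome scored higher at T30 than at T27, while 5 were closer to zebrafish and 8 farther. In counts 7 rose and none fell, while 22.6% of the table's genes tested rose and 52.2% fell. The median log2 change of the 13 was 0.28. In ND2, ND3, ND4, ND4L, ND6 and ATP8 zebrafish scored below every lamprey stage, between -0.67 and -0.41. With a higher score at T30 these 6 are farther by construction, with gains of -0.23 to -0.11, which is no result of its own. In CYTB, COX2, ND1, ND5 and COX1 zebrafish lay among the stages, and all 5 were closer. Zebrafish also lay among the stages in COX3 and ATP6, which ended farther, with gains of -1.08 and -0.05. COX3, another subunit of cytochrome oxidase, had the largest loss of the list. The rise of ND5 was lost without T27 replicate 3, T30 replicate 1 or T30 replicate 3, at edgeR adjusted p values of 0.102, 0.063 and 0.0999. COX1, a catalytic subunit of cytochrome oxidase, had 5824, 4963 and 6695 CPM at T30 and 4105, 4186 and 4072 CPM at T27 and rose by 0.50 ± 0.12 (n = 3 each, edgeR adjusted p = 0.00142). Apart from CYTB, COX2 and COX3 these genes were chosen after their values were seen. Counts of the mitochondrial genome made up 1.84% to 2.86% of the libraries.

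The table held 3 sarcomere and muscle genes, and all 3 rose, while 22.6% of the table's genes tested did. TTN and NEB, giant proteins of the sarcomere, and SMYD1, a methyltransferase of muscle, were chosen after their values were seen. NEB had 114, 46.1 and 102 CPM at T30 and 8.14, 2.58 and 4.68 CPM at T27, and TTN had 204, 86.4 and 243 CPM at T30 and 17.9, 16.6 and 16.8 CPM at T27, both without overlap but spread at T30. T30 replicate 2 was the lowest T30 library for NEB, TTN and SMYD1. It was also the lowest for GAPDH, and a link between GAPDH and the muscle genes was not tested. NEB gained 0.66 and SMYD1 gained 0.96, while TTN ended slightly farther (-0.08). Of the 1671 genes 746 belonged to no list, and 278 of these (37.3%) were closer at T30, against 34.6% of all rows.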

How the data were processed

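The authors deposited lamprey gene counts, made with featureCounts 1.6.3 against a kPetMar1 annotation with no strand option, per the file headers, from reads aligned with Bowtie2, per the submitters' processing notes. Without strand, reads of overlapping antisense genes cannot be told apart. The deposited cross-species table holds a score per gene and column, a z-score by its file's name, with 2 decimals. The pairing of orthologs is not given in the sources used here.

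Symbols joined the tables. Counts were fitted with edgeR 4.0.16 (TMM scaling, filterByExpr with a minimum count of 10, quasi-likelihood test, stage as the only term, all 12 libraries, Benjamini-Hochberg over 16526 genes, threshold 0.05, R 4.3.3). An SE was computed as log2 change over √F. CPM used TMM-scaled totals. The fit was tested on simulated data. Where nothing says that replicates are separate animals, p-values cover only the variation among these libraries, and that may be technical.

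Named genes were those with 1 count row and a mean of at least 1 CPM: the 15 largest gains, the 10 largest losses, the 2 largest gains and 1 largest loss of each list with at least 5 genes, and the thyroid genes, of which 1 item is not reported here. Others are said to be chosen after their values were seen. The members and the 38 lists were chosen with earlier results of these data known, and the list of genes coded by the mitochondrial genome and 16 removals of wrongly matched symbols were made after the table was read. Alternatives were another scaling, DESeq2 1.42.0, no filter, fewer libraries, a replicate block and other definitions of closeness. Same-numbered replicates deviated from their stage means with correlations from -0.43 to 0.39, so the numbers were not taken as pairs.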

Additional observations from a re-analysis of the deposited data

How the results depend on the processing

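The number of genes closer to zebrafish at T30 (578, with 1085 farther) was 279 with 678 farther when at least 0.5 score units were required, 141 with 376 farther at 1 unit, and 373 with 1292 farther with T28 as the early stage. Scores standardised again without Ciona, at 0.5 units, gave 370 closer and 797 farther. In none of these settings, nor with T29 as the early stage (459 closer, 1206 farther), did the closer genes outnumber the farther ones. A log2 change of at least 1 left 321 of the 1238 table genes called between T30 and T27, with 110 higher at T30, 211 lower and 98 of the 371 closer genes called in the direction of their score.

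Leaving out each library in turn gave 1170 to 1256 genes called, 337 to 378 of them higher at T30 and 808 to 878 lower, and 349 to 376 closer genes called in the direction of their score. With the replicate number as a block, 1225 genes were called, 364 higher and 861 lower, and 367 closer genes; the numbers pair no samples, so this is only another fit. DESeq2, its size factors, no filter and the 6 libraries of T27 and T30 gave 1179 to 1245 genes called. Scaling to the table's genes, chosen after seeing the data, moved the median log2 change of the table's genes by 0.13. Under it 5 genes lost their call (DAW1, IFT43, PSMD5, NOB1 and DMAP1) and 10 gained one (IFT57, SDHAF2, CCN1, TMEM42, CTSD, NDUFA7, COX2, COX3, ND1 and RBP4). Leaving out 1 library ended the call of 7 genes under at least 1 omission (DAW1, IFT43, PSMD5, NOB1, ND5, SEPSECS and TXNRD3) and gave a call to 9 (CCN1, COX2, CTSD, IFT57, INPP5A, ND1, ND6, RBP4 and SDHAF2). The 6 libraries of T27 and T30 alone ended the calls of ND5 and TXNRD3 and gave one to CCN1, which DESeq2 also called. The replicate block ended that of TXNRD3 and gave one to RBP4, and no filter ended that of TXNRD3. Of the 153 genes with values under the alternatives 20 changed call and none reversed. The cause was not tested. The depth and 3 libraries a stage limit calls of small changes; the zebrafish column has no replicate that could be checked.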

Other observations

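More genes were closer at T30 to the Ciona column than to zebrafish. Of the 1671 genes, 781 were closer to the Ciona score at T30 than at T27. Among the 578 genes closer to zebrafish 346 (59.9%) were, to be read beside 781 of all 1671. The Ciona scores had a median of 1.14 over genes and the zebrafish scores one of -0.14. With Ciona mostly high, a score that is higher at T30 tends to count as closer to it. Such scores numbered 801, and their overlap with the 781 was not counted.

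RBP4, which carries retinol in plasma, was chosen after its values were seen. It had 38.5, 43.1 and 42.9 CPM at T30 and 30.8, 20.6 and 43.4 CPM at T27, which overlap, and zebrafish scored above all 4 stages. Its log2 change of 0.39 ± 0.20 did not pass the test (SE, n = 3 each, edgeR adjusted p = 0.0917). Without T27 replicate 3, the highest T27 library, it was 0.69 and passed (edgeR adjusted p = 0.0035), as it did with the replicate block (0.032) and with libraries scaled to the table's genes (0.015). FASN, the fatty acid synthase, also chosen after its values were seen, rose by 1.13 ± 0.080 log2 units (SE, n = 3 each, edgeR adjusted p = 9.70e-09) and gained 1.34 score units toward zebrafish.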
